A study of Homo sapiens with 8 samples.

Results

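The genes described here are 10 members of the YAP-TEAD pathway: YAP1, WWTR1, TEAD1, LATS1, LATS2, CTGF, CYR61, ANKRD1, AMOTL2 and AMOTL1. They were chosen by name, with earlier results of these data known, and each was represented by 1 gene model among the 25918 in the deposited table. CTGF and CYR61 are the older names of CCN2 and CCN1. The row named TAZ in the table is tafazzin. The coactivator called TAZ is the product of WWTR1.

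The study mapped N6-methyladenosine (m6A), a methylation of adenosines inside mRNA, in cultures labelled HepG2, a human liver cancer line. One culture condition was UV irradiation at 0.04 J per square centimetre followed by 4 h of recovery, and another was heat shock at 43 degrees for 30 min; the labels leave unclear whether the recovery also followed heat. Overnight hepatocyte growth factor (HGF, also called scatter factor) at 10 ng/ml and overnight interferon gamma (IFNg) at 200 ng/ml were the other conditions. Each of these 4 treatments had 1 m6A immunoprecipitation library and 1 input library, and no untreated culture was analysed here. All groups shared the same culture medium with fetal serum and the same polyA selection. No difference below has a replicate check, and no p-value is given.

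YAP1 and the TAZ protein are transcriptional coactivators that do not bind DNA themselves. When the Hippo kinases LATS1 and LATS2 phosphorylate them they are held in the cytoplasm. When they are not phosphorylated they enter the nucleus and act through TEAD factors on targets such as CTGF, CYR61 and ANKRD1. Angiomotin family proteins, including AMOTL1 and AMOTL2, bind YAP1 and restrain it, and in liver the pathway is known for its control of organ size.

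Expression is the authors' deposited quantile, written here as a percentile from 0 to 100 of all gene models within a treatment. It is a rank, so it holds no amounts, no fold change and no read depth. Whether it was scaled to transcript length was not given in the sources used here, so genes are compared with themselves across treatments and not with one another. Many gene models tied at the bottom, a floor at percentile 45.5 (UV), 32.7 (heat shock), 20.4 (HGF) and 18.4 (IFNg). For comparisons, lower values were raised to 45.5. A treatment was called apart for a gene when its percentile lay at least 10 points beyond the nearest of the other 3. The background is the 12624 gene models at percentile 60 or more in any treatment, and 9 of the 10 genes were among them. Each of these 9 stood above percentile 70 in all 4 treatments. Fewer cells with a transcript and less transcript per cell cannot be told apart in such bulk RNA.

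The labelled liver identity was not seen in its defining markers. Of 10 hepatocyte markers, 9 were under percentile 60 in every treatment. Albumin (ALB) stood highest after heat shock, at 57.6, and alpha-fetoprotein (AFP) was at or under 45.5 throughout. Transthyretin (TTR) stood at 76.1 after UV and 71.5 after heat shock but at 43.0 after HGF and 42.0 after IFNg. Of other cell types, 4 of 6 fibroblast markers and 3 of 4 cholangiocyte markers passed percentile 60 in some treatment, and 0 of 4 blood and 0 of 4 endothelial markers did. The cytokeratin KRT7 stood between 99.2 and 99.8. Percentiles summed over the fibroblast markers lay between 372 and 395, over the cholangiocyte markers between 245 and 261, and over the hepatocyte markers between 297 and 489, with 8 of the 10 at the floor after UV and 1 after IFNg. The part of cell identity in the results below was not tested, and the cultures are called here by their label.

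TEAD factors are known to recognise GGAATG, which reads CATTCC on the other strand. RefSeq promoter windows on GRCh38.p14, with 250 bases before and 50 after a gene start, were matched for 8 of the 10 genes and gave 11 windows. TEAD1 and CYR61 were not matched. The motif was in 5 of the 11 windows, and in 14.0% of all 35116 windows on either strand. CTGF had 3 copies, which 0.125% of all windows reached or passed, ANKRD1 had 2, and AMOTL2, YAP1 and LATS2 had 1 each. The LATS2 copy began 9 bases after the start. Stretches upstream of the start are printed 5′ to 3′ on the gene's strand because they hold the motif copies of these genes, with the motif in capitals. A match is a description of letters and not evidence of binding.
CTGF (chr6:131951450-131951553, minus strand): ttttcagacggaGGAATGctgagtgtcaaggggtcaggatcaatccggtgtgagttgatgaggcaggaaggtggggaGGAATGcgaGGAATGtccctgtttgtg
ANKRD1 (chr10:90921198-90921319, minus strand): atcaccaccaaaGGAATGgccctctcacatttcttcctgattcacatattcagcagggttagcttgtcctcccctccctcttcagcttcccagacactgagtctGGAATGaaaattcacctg
AMOTL2 (chr3:134374499-134374528, minus strand): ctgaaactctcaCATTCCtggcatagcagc
YAP1 (chr11:102110273-102110302, plus strand): cgggagtgtgcaGGAATGtagcaacttgca

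YAP1 (iduc001pgs.1, chromosome 11, 101486541 to 101609358, plus strand, on the deposited build, which is not given in the sources used here) stood at percentile 98.8 (UV), 98.97 (heat shock), 99.07 (HGF) and 98.9 (IFNg). Counted from the top, these were ranks 302, 267, 243 and 278. The range of 0.228 points compares with a median range of 2.15 points over the 1034 gene models whose mean over the treatments was 95 or above. YAP1 was near the top of the ranking in every treatment, where a rank leaves little room to vary, so its narrow range does not show a steady level. WWTR1 (iduc003exf.1, chromosome 3, 150720722 to 150858472, minus strand) stood at 74.3 (UV), 70.8 (heat shock), 87.3 (HGF) and 85.4 (IFNg). The stress treatments were both low and the ligand treatments both high, with 11.1 points between the nearest values. Such a gap of 10 points or more, with HGF and IFNg above, was found in 7.98% of gene models past the filter. Percentiles in these data move with the GC content of the transcript, which was 40.9% for WWTR1. When the median of gene models of like GC content was subtracted in each treatment, the WWTR1 stress values minus ligand values gave -17.97 points at the nearest pair, and 1.94% of gene models then had a gap of 10 points or more. With the same correction YAP1 (GC content 43.5%) had 93.0 with UV, 92.9 with heat shock, 99.8 with HGF and 98.5 with IFNg. Both stress values were then below both ligand values, by -5.45 points at the nearest pair. YAP1 varied by only 0.228 points before the correction, so this gap comes from the subtracted medians and is no result about YAP1. ANKRD1 (GC content 43.3%), which did not vary once lower values were raised to 45.5, likewise had -5.36 points.

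TEAD1, the DNA-binding partner (iduc001mkj.2, chromosome 11, 12652545 to 12922875, plus strand), went the other way. It stood at 94.5 (UV), 95.5 (heat shock), 87.1 (HGF) and 88.8 (IFNg). The stress treatments were above the ligand treatments by 5.63 points, under the 10 points that 5.75% of gene models past the filter reached. TEAD1 and LATS1 were the 2 of 9 genes with both stress values above both ligand values, against 36.3% of gene models, and WWTR1 the 1 of 9 with the reverse, against 30.9%. With the GC correction the gap of TEAD1 (GC content 41.3%) closed to 0, that is, the pairs overlapped. The kinase LATS1 (iduc003qmu.1, chromosome 6, 150023744 to 150081085, minus strand) showed the same order. Its percentile was 82.5 (UV), 82.0 (heat shock), 75.95 (HGF) and 75.6 (IFNg), a gap of 6.09 points that also closed to 0 with the GC correction (GC content 39.7%). The kinase LATS2 (iduc001unr.2, chromosome 13, 20445176 to 20533722, minus strand), which is both a regulator and a known target of YAP1, had another order. It stood at 80.1 (UV), 79.7 (heat shock), 70.9 (HGF) and 84.3 (IFNg). HGF was the low value, with a difference of -8.74 points to the nearest treatment. After GC correction it stood at 64.7 with HGF and between 76.0 and 76.5 with the others, which passes the 10 points of a call. Without the correction 1.39% of gene models past the filter were called lower after HGF. The share with the correction was not computed, so this call cannot be set against a background.

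**Figure D1:**
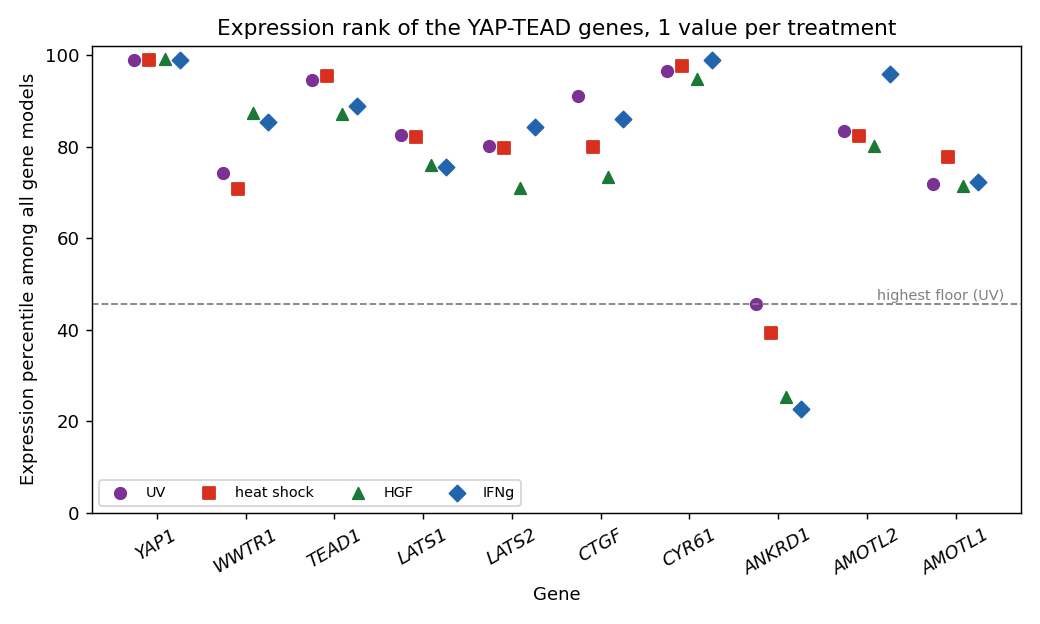
Expression percentile among all gene models (vertical axis, points) for each of the 10 genes (horizontal axis), with 1 point per treatment and the UV floor of 45.5 as a dashed line. YAP1 points coincide near 99, WWTR1 splits into a low stress pair and a high ligand pair, and ANKRD1 lies at or under the dashed line.

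With lower values raised to 45.5, CTGF varied most among the targets in the 10 genes. CTGF, a secreted matricellular protein (iduc003qcz.1, chromosome 6, 132311010 to 132314211, minus strand), stood at 91.0 (UV), 79.9 (heat shock), 73.5 (HGF) and 86.0 (IFNg). UV was the high value, by 5.05 points over IFNg, and HGF the low one, with a difference of -6.47 points to heat shock, so neither reached a call. CYR61, a related secreted protein (iduc001dle.1, chromosome 1, 85819048 to 85821978, plus strand), stood at 96.6, 97.7, 94.7 and 98.8 after UV, heat shock, HGF and IFNg. HGF was again the low value, and IFNg the high one, at ranks 1365 and 306 from the top. ANKRD1, a nuclear ankyrin repeat protein (iduc001khe.1, chromosome 10, 92661837 to 92671012, minus strand), was at the floor of 45.5 after UV and at 39.2, 25.2 and 22.7 after heat shock, HGF and IFNg. With lower values raised to the UV floor it did not vary, and it was the 1 gene that did not pass the filter.

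AMOTL2, a YAP1-binding scaffold and itself a known target (iduc003eqg.1, chromosome 3, 135556880 to 135576096, minus strand), gave the 1 call among the 9 genes. It stood at 83.5 (UV), 82.3 (heat shock), 80.1 (HGF) and 95.9 (IFNg). IFNg lay 12.4 points above the nearest treatment, a call that 3.39% of gene models past the filter also had. With the GC correction the distance was 1.71 points and the call ended (GC content 56.7%). AMOTL1 (iduc001pfb.1, chromosome 11, 94141156 to 94249566, plus strand) stood at 71.9 (UV), 77.8 (heat shock), 71.5 (HGF) and 72.3 (IFNg). Heat shock was the high value, by 5.56 points. Calls in the other directions numbered 0 of 9, against backgrounds of 1.93% higher and 2.17% lower for UV, 2.87% and 3.98% for heat shock, 1.57% and 1.39% for HGF, and 3.02% lower for IFNg. A range of 10 points or more over the treatments was found for WWTR1, LATS2, CTGF and AMOTL2, which is 4 of 9, against 63.1% of gene models past the filter.

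Most of the genes had their lowest percentile after HGF. This count was made after the values had been seen. TEAD1, LATS2, CTGF, CYR61, AMOTL2 and AMOTL1, that is 6 of 9, were lowest after HGF, against 19.5% of gene models past the filter. The lowest value came with UV for YAP1, heat shock for WWTR1 and IFNg for LATS1, 1 of 9 each, against 16.4%, 26.9% and 30.2% of gene models. Differences to the nearest treatment ran from -0.451 points for AMOTL1 to -8.74 for LATS2. With the GC correction 5 of the 9 were lowest after HGF, against 20.9% of gene models. Against the median of the other 3 treatments, the 9 genes had a median shift of -3.37 points after HGF, 2.21 after IFNg, 0.44 after UV and 0.04 after heat shock. With the GC correction the medians of the 9 genes were -1.84 for HGF, 2.84 for IFNg, -1.39 for UV and -1.56 for heat shock, so those of the stress treatments changed sign. Uncorrected, over all gene models past the filter, these medians were -0.24, -0.18, 0.24 and 0.45.

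Other genes of the pathway came from a list of 39, with 20 further known targets and 19 upstream regulators and cofactors. The list was chosen with earlier results of these data known, so its counts are not an independent check of the pattern after HGF. Of the targets, 19 passed the filter and 13 were lowest after HGF, against 19.5% of all gene models past the filter, including the matrix protein gene THBS1 (96.8, 94.9, 85.02 and 95.7 after UV, heat shock, HGF and IFNg), the tissue factor gene F3 (84.4, 82.1, 67.7 and 72.0) and GADD45A (82.5, 75.8, 69.3 and 92.4). FJX1, NT5E and TGFB2 were under percentile 60 after HGF, and so passed the filter through other treatments. The median shift of the targets after HGF was -4.00 points, and -3.84 with the GC correction, under which 9 of 19 were lowest after HGF, against 20.9% of gene models. The 6 other targets were AXL, a receptor kinase gene, and ARHGEF17, both lowest after heat shock, NUAK2 and TAGLN, both lowest after UV, and CCDC80 and BIRC5, both lowest after IFNg. TAGLN, an actin-binding protein gene, stood highest after HGF (96.6 against 88.4 to 90.5), but with the GC correction heat shock was highest, at 93.7 against 90.9 for HGF. Of the upstream genes, 18 passed the filter and 4 were lowest after HGF, with a median shift of -1.41 points that became 0.88 with the GC correction. Calls at 10 points numbered 2 of the 37 genes past the filter, both lower after HGF, against 1.39% of gene models. FJX1, a Golgi kinase of the Dachsous-Fat branch, had percentile 56.8 with HGF, against 67.0 to 76.1 otherwise. FRMD6, a FERM domain protein upstream of the kinases, had percentile 45.4 with HGF, against 57.8 to 65.2 otherwise. FRMD6 passed the filter through UV and heat shock alone, and its call ended with the GC correction, at 48.0 with HGF and 57.4 with UV, the nearest. The list had 0 calls otherwise.

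**Figure D2:**
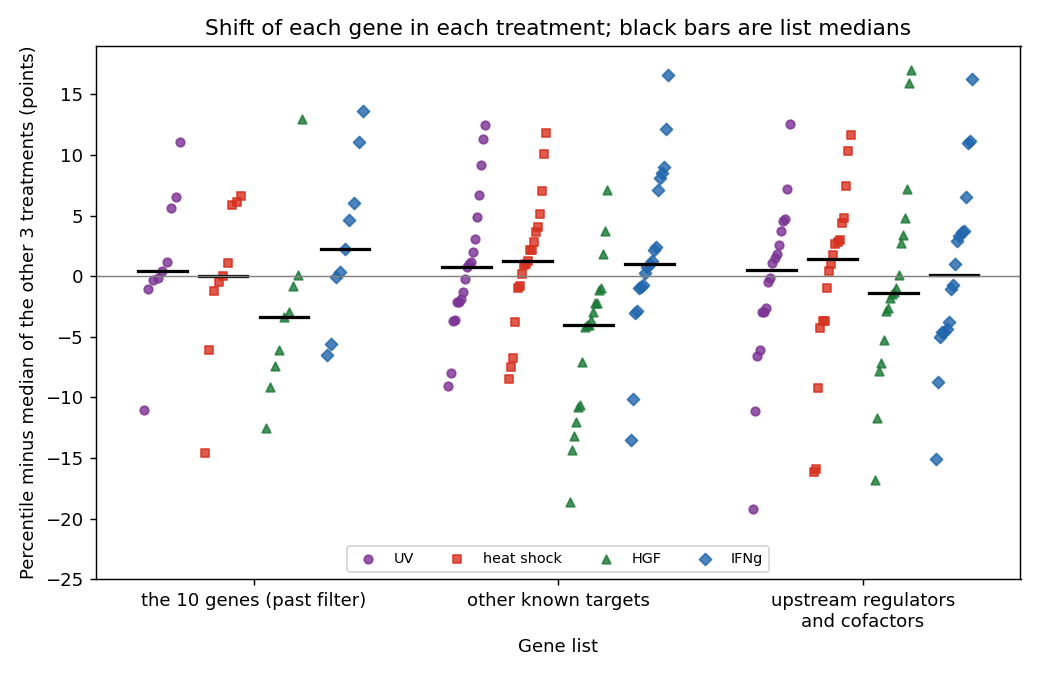
Percentile minus the median of the other 3 treatments (vertical axis, points) for each gene past the filter in 3 lists (horizontal axis), with 1 mark per gene and treatment and black bars at the list medians. The HGF medians lie lowest in each list, at -3.37, -4.00 and -1.41 points from left to right.

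The other TEAD genes did not follow TEAD1. TEAD2 stood at 72.1 (UV), 67.1 (heat shock), 89.2 (HGF) and 83.3 (IFNg), with the ligand treatments 11.2 points above the stress treatments. TEAD3 stood at 73.1, 70.5, 80.3 and 79.7, and TEAD4 at 92.4, 88.2, 92.5 and 95.7 in the same order of treatments. TEAD1 was therefore the TEAD gene with stress above ligand treatments, and the other TEAD genes had the reverse order. For TEAD4 the stress minus ligand gap was only -0.12 points, and for TEAD3 it was -6.56. Their transcripts had GC contents of 58.4% to 60.4%, against 41.3% for TEAD1. With the GC correction the gap of TEAD2 was 4.08 points with the ligand treatments above. The order turned for TEAD3 and TEAD4, to 2.88 and 6.90 points with the stress treatments above. As for YAP1, the corrected gap of TEAD4 comes from the subtracted medians and is no result about TEAD4.

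The patterns most like CTGF, by the smallest sum over the 4 treatments of absolute differences in percentile, were those of NXT1 (8.53 points), NIT2 (9.47) and SIAE (9.79). Those most like YAP1 were NDUFB9 (0.509), PCBP2 (0.532) and SOD1 (0.548). The small sums for YAP1 go with the narrow spread of percentiles among gene models at the top.

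Peaks of m6A are the authors' own calls. Each is given by its position along the transcript model in nucleotides, its transcript segment and the authors' score, whose scale no label or header explains and whose lowest listed value was 2. A peak was listed for 9 of the 10 genes with UV, 8 with heat shock, 7 with HGF and 7 with IFNg, with 30, 24, 15 and 14 peaks. Among gene models past the filter, 54.5%, 43.9%, 42.2% and 27.8% had a peak in the same order of treatments. Coding gene models within 2.5 percentile points of each gene had a peak in shares that, summed over the 10 genes, give 6.06, 5.09, 4.53 and 3.48 genes. These gene models of like rank were not matched for transcript or exon length, here or below. Library depth is unknown, and an unlisted peak does not show an unmethylated site. Of the 83 peaks of these genes, 94.0% lay in exons of 400 nt or more, against 87.9% of all peaks with an exon length. They lay in coding sequence (36), around the stop codon (25), in the 3' UTR (15), at the transcript start (5) and in the 5' UTR (2), that is 43.4%, 30.1%, 18.1%, 6.02% and 2.41%. The shares over all annotated peaks were 42.0%, 28.0%, 20.8%, 6.69% and 2.40%.

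YAP1 had 3 peaks after UV, at 130 (transcript start, score 3.58), 513 (coding sequence, 4.08) and 1473 (around the stop codon, 5.45). After heat shock its peaks were at 129 (4.52), 492 (4.73) and 1474 (4.98). After HGF they were at 1479 (3.41) and, in the 3' UTR, 1860 (2.65), and after IFNg at 1481 (2.74) and 3058 (3.32). The stop-codon peak was therefore listed in all 4 treatments, and both exon 1 peaks after UV and heat shock alone. As many peaks or more were listed for 11.3%, 9.39%, 15.1% and 10.5% of coding gene models of like rank. WWTR1 had a single peak, after UV, at 1344 around the stop codon (3.39). Coding gene models of like rank had a peak in 62.7% of cases after UV and in 47.3%, 54.6% and 43.6% after heat shock, HGF and IFNg. The exact 95% interval of the UV share was 59.95% to 65.46%, and that of the HGF share 51.8% to 57.4%. The high rank of WWTR1 after HGF and IFNg was thus not accompanied by a listed peak.

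TEAD1 held the strongest peak of the set. In its 7644 nt last exon, a 3' UTR peak was listed at 7184 after UV, heat shock and HGF and at 7207 after IFNg. Its score was 9.52 after UV, the 2nd highest of all 13307 UV peaks, and 6.75, 5.95 and 5.50 after heat shock, HGF and IFNg, where it ranked 99 of 9803, 328 of 9111 and 91 of 5280. A peak around the stop codon was also listed in all 4, at 1952 (6.59), 1974 (6.08), 1950 (4.17) and 1967 (3.27). Peaks at the transcript start, at 88 (6.20) and 108 (5.45), and in the 5' UTR, at 441 (6.18) and 444 (6.36), were listed after UV and heat shock alone. HGF added a 3' UTR peak at 2572 (2.28). As many peaks or more were listed for 6.45%, 5.39%, 9.78% and 16.9% of coding gene models of like rank with UV, heat shock, HGF and IFNg.

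YAP1 and TEAD1 thus shared a start peak after both stress treatments and neither ligand treatment. Of 2325 gene models at percentile 85 or more in all treatments, 27.8% had a transcript-start peak with UV, 22.2% with heat shock, 6.54% with HGF and 1.29% with IFNg. A start peak after both UV and heat shock was listed for 446 of the 2325, and 341 of these 446 (76.5%) had none after HGF or IFNg.

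Most peaks of the kinase transcripts lay in coding sequence. LATS1 had 5 after UV, at 1260 (2.76), 1628 (3.68), 2148 (3.88) and 2905 (2.43) in coding sequence and 3754 (3.14) around the stop codon. After heat shock there were 4, at 603 (3.38), 2142 (2.96), 2897 (2.87) and, around the stop codon, 3793 (3.51). HGF had 1, at 2886 (2.27), and IFNg had 2, at 611 (2.87) and 1838 (2.18), all in coding sequence. No LATS1 site was listed in all 4 treatments. As many peaks or more were listed for 3.95%, 5.28%, 52.1% and 10.1% of coding gene models of like rank with UV, heat shock, HGF and IFNg, so the LATS1 number was common after HGF.

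LATS2 had 5 peaks after UV, at 472 (2.53), 1569 (4.36), 2557 (2.80) and 2640 (2.10) in coding sequence and 3880 (2.01) around the stop codon. After heat shock there were 5, at 1567 (3.20), 1972 (2.501) and 2641 (2.30) in coding sequence and 3513 (2.63) and 3887 (2.38) around the stop codon. HGF had 4, at 482 (3.94), 1560 (2.22), 2643 (4.14) and 3439 (2.18), and IFNg had 4, at 488 (2.08), 1596 (3.85), 2618 (3.99) and 3443 (3.46), all in coding sequence. At least as many peaks were listed for 4.04%, 1.82%, 2.90% and 1.93% of coding gene models of like rank, which were not matched for length. Several of the LATS2 scores were near the lowest listed value of 2. LATS2 therefore had 4 peaks after HGF, where its rank was lowest.

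CTGF had a peak around the stop codon after UV (1278, score 4.13), heat shock (1236, 3.23) and IFNg (1245, 2.19), and a start peak after UV (77, 2.60). None was listed after HGF, the treatment with its lowest percentile, where 50.8% of coding gene models of like rank had a peak. CYR61 had a stop-codon site in all 4 treatments, with UV at 1523 (4.23), with heat shock at 1516 (3.84), with HGF at 1457 (5.19) and with IFNg at 1489 (6.28). The IFNg score ranked 13 of 5280. Further CYR61 peaks were at 1243 (2.37) after heat shock and at 1800 in the 3' UTR (2.70) after UV. Its peak numbers were common, with as many or more for 32.2%, 27.0%, 51.0% and 35.6% of coding gene models of like rank with UV, heat shock, HGF and IFNg. ANKRD1 had no peak in any treatment. Of coding gene models of like rank, at most 2.63% had one in any treatment.

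AMOTL2 had 5 peaks after UV, at 427 (2.10) and 455 (2.65) in coding sequence and at 3187 (4.25), 3601 (2.14) and 3840 (3.40) in the 3' UTR. After heat shock they were at 471 (4.53) and 3193 (3.88), and after HGF at 442 (2.26) and 3104 (4.52). After IFNg both lay in the 3' UTR, at 2974 (5.42) and 3834 (2.52). As many peaks or more were listed for 4.10%, 24.2%, 23.2% and 15.0% of coding gene models of like rank with UV, heat shock, HGF and IFNg. The coding-sequence site was thus listed in every treatment but IFNg, the treatment with the fewest listed peaks. Its UV and HGF scores were near the lowest listed value of 2. The share of sites listed in this way over all gene models was not computed. AMOTL1 had coding-sequence peaks at 547 (3.49) and 891 (5.54) and a peak around the stop codon at 2851 (4.88) after UV. After heat shock these were at 543 (2.58), 893 (4.41) and 2858 (2.26). HGF had peaks at 921 (3.63) and, around the stop codon, 3206 (4.36), and IFNg had none. Of coding gene models of like rank, 16.1%, 9.81% and 19.4% had as many peaks or more after UV, heat shock and HGF. After IFNg only 30.4% had any peak.

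**Figure D3:**
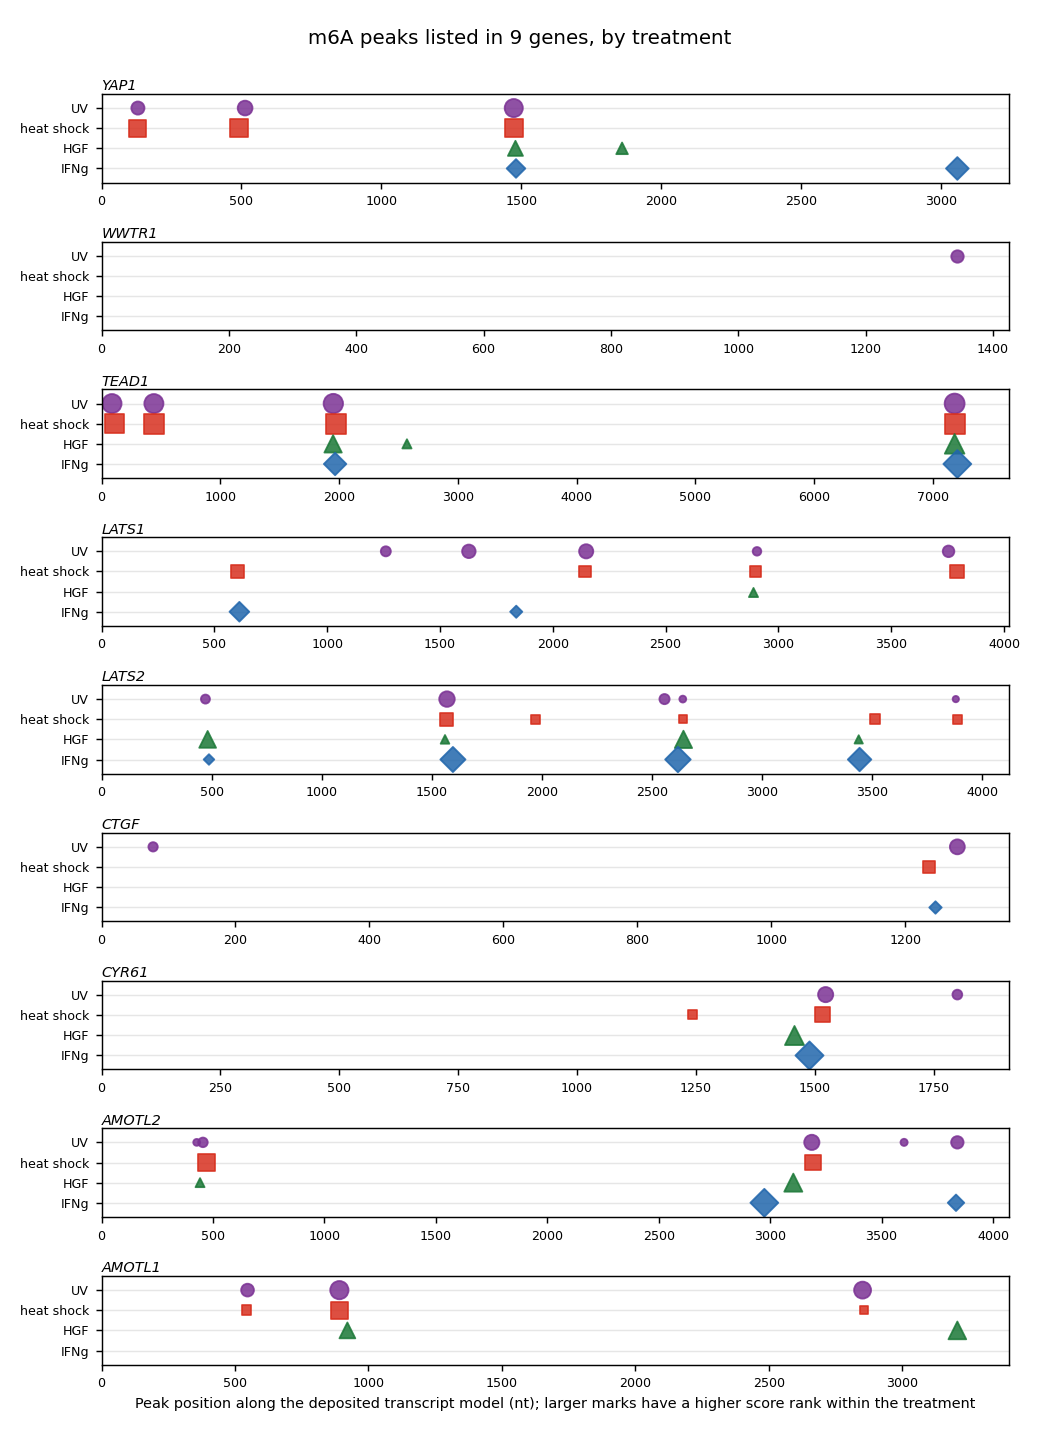
Position of each listed m6A peak along the transcript model (horizontal axis, nt) in the 9 genes with a peak, with 1 line per treatment and larger marks for a higher score rank within the treatment. Start peaks of YAP1 and TEAD1 appear on the UV and heat shock lines alone, and the stop-codon peaks of YAP1, TEAD1 and CYR61 on all 4 lines.

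When peaks within 100 nt were joined, the 83 peaks formed 38 sites. All 4 treatments listed 6 of them (15.8%), against 16.5% of 17764 sites in all gene models. UV and heat shock alone listed 9 of the 38 sites. In gene models at percentile 70 or more in all treatments, 16.2% of sites were listed after UV and heat shock alone. HGF and IFNg alone listed 0 of the 38, but the share of such sites over all gene models was not computed. Fewer peaks were listed after HGF (9111) and IFNg (5280) than after UV (13307) and heat shock (9803).

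At the 6 shared sites, scores were compared as percentile ranks among the 2925 sites listed in all 4 treatments. The stop-codon site of YAP1 ranked 55.1 (UV), 68.96 (heat shock), 26.4 (HGF) and 26.0 (IFNg). The stop-codon site of TEAD1 ranked 83.1, 92.6, 49.7 and 48.3 in the same order, and its 3' UTR site 99.97, 97.7, 90.8 and 97.3. Stress treatments were above ligand treatments at these 3 sites, as at 23.1% of all shared sites. The CYR61 site had the reverse order, at 25.7, 33.6, 77.8 and 99.6, as did the LATS2 site at 2557 to 2643, at 4.48, 2.74, 48.6 and 71.9. These 2 compare with 26% of all shared sites. The LATS2 site at 1560 to 1596 ranked 28.1, 17.4, 2.496 and 67.9. There IFNg stood 39.8 points above the nearest treatment, the 1 site of the 6 with a distance of 25 points or more, which 7.62% of shared sites had after IFNg. In every other direction 0 of the 6 sites passed 25 points, against 3.93% higher and 3.08% lower for UV, 3.38% and 2.91% for heat shock, 3.18% and 3.69% for HGF, and 7.9% lower for IFNg. Transcript GC content was 43.5% for YAP1, 41.3% for TEAD1, 50.3% for CYR61 and 51.8% for LATS2, and its part in the score ranks was not tested.

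**Figure D4:**
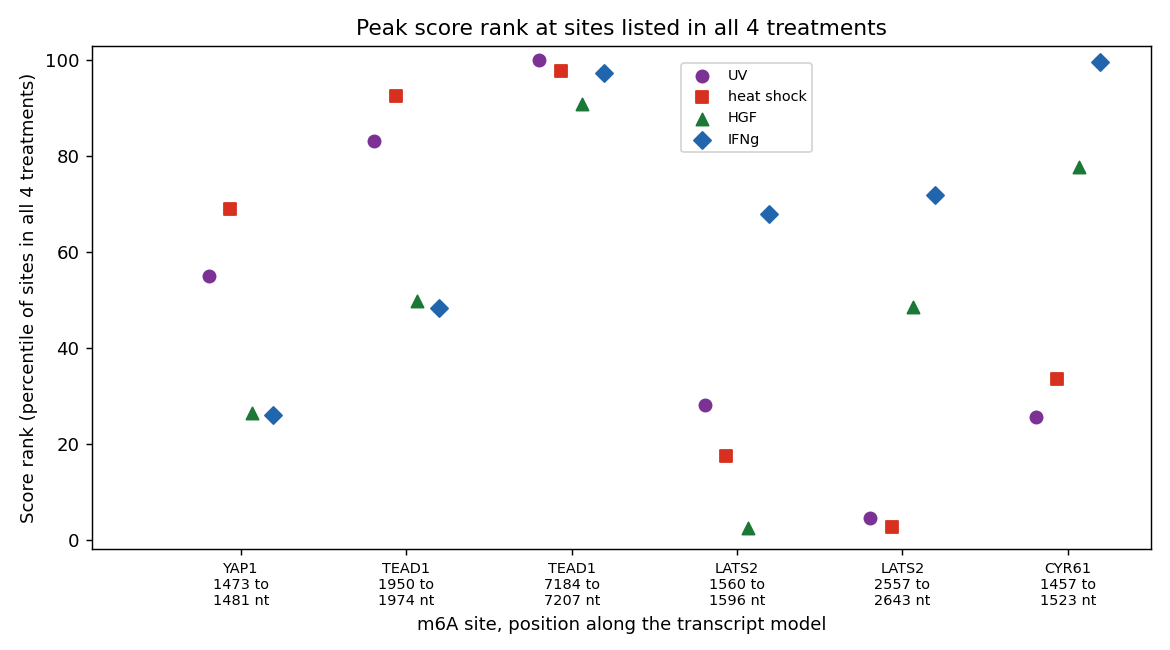
Percentile rank of the peak score (vertical axis) at the 6 sites of these genes that were listed in all 4 treatments (horizontal axis, gene and position range in nt), with 1 point per treatment. Stress points lie above ligand points in YAP1 and at the TEAD1 stop codon, and below them at the LATS2 site at 2557 to 2643 and in CYR61.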

How the data were processed

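The samples were 8 libraries, 1 immunoprecipitation and 1 input for each of 4 treatments. The authors deposited 1 table of gene models with, per the file headers, an expression quantile for each treatment (a fraction from 0 to 1), and the positions, exons, segments, numbers and scores of m6A peaks. Aligner, peak caller, genome build and which library gave the quantile are not given in the sources used here. Library depth is unknown. The members and lists were chosen with earlier results of these data known. Named genes were the 10 members, genes of the wider list called apart, and the 3 patterns most like CTGF and YAP1; THBS1, F3, GADD45A, NT5E, TGFB2, the 6 targets not lowest after HGF and the TEAD genes were picked with their values in view. Transcript GC came from the longest GENCODE 29 transcript of the symbol or a synonym, not from the deposited models, and covered 89.0% of gene models past the filter, in 40 bins. Starts are counted from 1. Intervals of shares (exact Clopper-Pearson, 95%) cover counting error only. Software was matplotlib 3.10.9, SciPy 1.17.1, NumPy 2.4.6 and pandas 2.3.3 under Python 3.11.15. The code of the call rule and site joining was checked on simulated data. These had planted shifts above the threshold, little noise, no floor and no GC effect, so they give no error rate for the real data.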

Additional observations from a re-analysis of the deposited data

How the results depend on the processing

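No paired analysis was possible because each treatment had 1 library of each kind. Calls moved with the threshold and the reference. The shares of all gene models called under these other settings were not computed. The counts below therefore cannot be set against a background and are no result about these genes. With 5 points, 1 member was higher after UV, 1 higher after heat shock and 2 lower after HGF, and in the wider list 1 was lower after heat shock, 2 higher and 5 lower after HGF, and 3 higher and 1 lower after IFNg. With 20 points, 0 members were higher after IFNg and 0 of the wider list lower after HGF. Against the median of the other 3, members higher and lower numbered 1 and 1 after UV, 1 lower after heat shock, 1 and 1 after HGF, and 2 higher after IFNg; the wider list had 3 and 2, 4 and 2, 2 and 8, and 5 and 3 after UV, heat shock, HGF and IFNg. With GC correction, 1 member was lower after HGF, 0 were higher after IFNg, and 1 of the wider list was lower after HGF. By log2 rank from the top, 1 of the wider list was higher and 1 lower after HGF and 2 higher after IFNg. With a filter at percentile 90, 0 of the wider list were lower after HGF. The median shift of the wider list turned from 0.74 to -1.88 after UV with GC correction and from 0.98 to -0.26 after IFNg with the filter at 90. TEAD1 after heat shock turned from 6.65 to -1.56 points against the median of the others with GC correction. With scores of 3 or more, 3 member sites were listed in all 4 treatments in place of 6. Counting a peak in any gene model of a member left the numbers of members with a peak the same. That outcome was fixed in advance, since each member had 1 gene model. The causes of these changes were not tested.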

Other observations

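Of the 18 upstream genes and cofactors past the filter, 8 (44.4%) had both stress ranks above both ligand ranks, against 36.3% of gene models. The reverse order was found in 6 of the 18 (33.3%), against 30.9% of gene models. LATS2 had neither order. The scaffold gene SAV1 was 1 of the 6 with the reverse order, at 68.2 (UV), 69.8 (heat shock), 73.3 (HGF) and 70.8 (IFNg). STK3, which encodes an upstream kinase of the LATS kinases, stood at 84.4 (UV), 87.5 (heat shock), 77.2 (HGF) and 75.7 (IFNg). Its relative STK4 stood at 79.2, 82.6, 77.8 and 74.2. The LATS cofactor genes listed under older symbols had both stress values higher too, with MOBKL1B (now MOB1A) at 91.8, 93.6, 89.2 and 87.5 and MOBKL1A (now MOB1B) at 69.6, 68.7, 57.0 and 53.6. The transcripts of STK3, STK4, MOBKL1B and MOBKL1A had GC contents from 34.3% to 43.4%. With GC correction UV and heat shock were no longer above HGF and IFNg for any of these 4, nor for FRMD6, TAOK1 and TAOK3. NF2 (GC content 55.95%) stood at 92.8 (UV), 90.9 (heat shock), 88.1 (HGF) and 86.4 (IFNg), a gap of 2.85 points. It kept the order with the correction, at 91.6 (UV), 91.5 (heat shock), 80.1 (HGF) and 77.3 (IFNg). Most of the corrected gap of 11.4 points comes from the subtracted medians. JUB (now AJUBA), a LIM protein that binds LATS kinases, stood at 88.7, 84.999, 80.9 and 96.0, with the same high and low treatments as AMOTL2. All were chosen after their values were seen.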
